A study of Arabidopsis thaliana with 48 samples.

Results

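This comparison set wild-type Arabidopsis thaliana seedlings after 1 h with the quinone 2,6-dimethoxy-1,4-benzoquinone (DMBQ) against seedlings after 0.5 h with it, and asked which transcripts were still climbing and which had begun to decay in that interval. It was chosen by label alone and holds 6 of the 48 libraries of the series, 3 at 1 h and 3 at 0.5 h. The series measured mRNA by sequencing in 16 groups of 3 libraries, formed by genotype, agent and time (0, 0.5, 1 and 6 h). The wild type (WT) was a Col-0 line expressing the calcium reporter aequorin, and the mutant card1-2 (card1) was in the same aequorin background. All seedlings were 7 days old, had grown in sucrose-containing liquid Murashige-Skoog medium under long days, and received 5 µM DMBQ or an equal volume of its solvent DMSO. The groups used here were WT with DMBQ at 1 h and 0.5 h, WT with DMSO at 1 h and 0.5 h, and card1 with DMBQ at 1 h and 0.5 h, with the groups at 0 h and 6 h shown for time courses. Nothing in the labels says that replicates were grown as separate cultures. The p-values therefore cover the spread among the libraries, which may be only technical. Time after treatment, time of day and time since the seedlings were handled move together within either agent, and the DMSO interval is the matched control for all of them.

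Benzoquinones of this kind are released from lignin and phenolics in plant cell walls, and parasitic plants read DMBQ as a host signal. In Arabidopsis, the leucine-rich repeat receptor kinase CARD1 (AT5G49760, also called HPCA1) is needed for the calcium response to DMBQ. Quinones are also reactive chemicals, which plants typically meet with glycosyltransferases, glutathione transferases, cytochrome P450s and ABC transporters under the control of TGA and NAC factors. Touch, stirring and pouring induce a separate and transient set of plant genes, among them calmodulins and xyloglucan endotransglucosylases, through calcium.

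Depth was 13307750, 14492051 and 12597210 gene counts in the WT libraries with DMBQ at 1 h and 11369634, 9625477 and 10718590 at 0.5 h. With DMSO the WT libraries held 11986482, 10896337 and 12757673 gene counts at 1 h and 7428395, 11201363 and 5841407 at 0.5 h. Replicates of the 2 DMBQ groups correlated at Spearman 0.991 to 0.995 and each pair differed by more than sampling noise. CARD1 averaged 74.8 ± 5.38 in WT and 22.1 ± 0.613 in card1 after 1 h with DMBQ (SD, n = 3 each), which goes with the labels. Levels are in CPM, counts scaled to a common library total, throughout. The 19839 genes past the count filter were tested in 1 edgeR quasi-likelihood fit to the 48 libraries. A gene was called at a Benjamini-Hochberg adjusted p below 0.05, and this test stands behind every adjusted p given.

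The 3 WT libraries with DMBQ at 0.5 h stood apart from the other libraries of the comparison in how expression depended on transcript length. The Spearman correlation of a gene's level relative to its mean over libraries with its transcript length was 0.0246 to 0.0995 in WT with DMBQ at 1 h and -0.43 to -0.389 at 0.5 h. With DMSO it was 0.0234 to 0.0501 at 1 h and -0.213 to -0.158 at 0.5 h. Long transcripts were therefore high and short ones low at 1 h relative to 0.5 h. With genes in 5 equal bins by transcript length, the median log2 fold change with DMBQ was 0.24 in the longest bin and -0.246 in the shortest. It was 0.0989 and -0.0987 with DMSO, and -0.0176 and 0.0351 in card1 with DMBQ. A fit with a per-library correction for transcript length and GC content was therefore also run. Its values stand beside the gene lists, gene sets and named genes for which it changed a call or moved a count by over 1.5 times. What made these libraries differ was not tested.

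**Figure D1:**
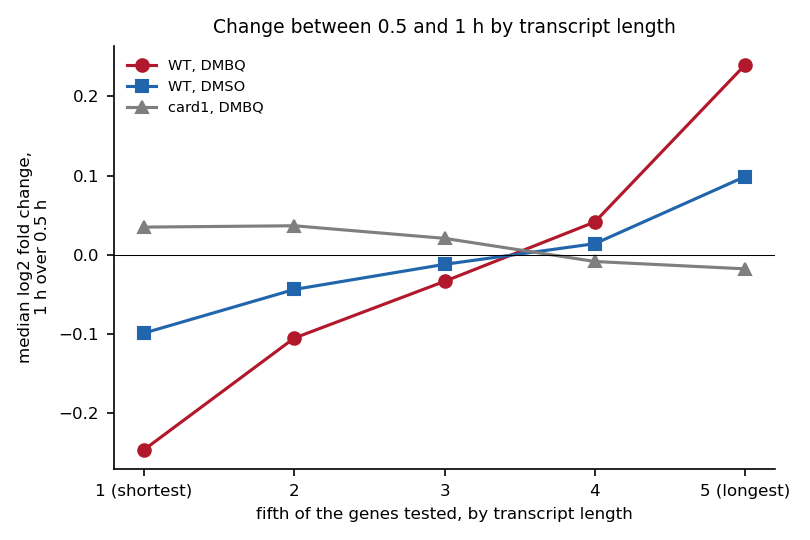
Median log2 fold change between 1 h and 0.5 h (vertical axis) in 5 equal bins of the tested genes ordered by transcript length (horizontal axis), for WT with DMBQ, WT with DMSO and card1 with DMBQ. The medians for WT with DMBQ run between -0.246 in the shortest bin and 0.24 in the longest, while those for card1 stay within 0.0368 of zero.

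Across the WT transcriptome, 7066 genes (35.6% of those tested) were called with DMBQ between the 2 times. Of them, 3513 genes (17.7% of those tested) were higher and 3553 (17.9%) lower at 1 h than at 0.5 h. Most of these changes were small: 373 rises (1.88%) and 564 falls (2.84%) were at least 2-fold. The length and GC correction left 2448 rises (12.3%) and 2877 falls (14.5%), and 4617 of the 7066 called genes were called in both fits. In the matched solvent interval, 1333 genes (6.72%) rose and 1344 (6.77%) fell, or 1085 (5.47%) and 1405 (7.08%) with the correction. No library is shared between the 2 intervals, and across genes their log2 fold changes correlated at Pearson 0.696. The genes that rose in both numbered 1145, or 32.6% of the DMBQ rises and 85.9% of the DMSO rises, and 1085 fell in both, 30.5% of the DMBQ falls and 80.7% of the DMSO falls. No gene fell with DMBQ and rose with DMSO, whereas 8 rose with DMBQ and fell with DMSO. The count of DMSO calls depended on single libraries, with 773 rises and 890 falls without DMSO 1 h replicate 1, and 840 rises and 846 falls without DMSO 0.5 h replicate 1.

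The direct test of the difference, the DMBQ change minus the DMSO change, called 32 genes (0.161% of those tested). In each of them the change was more positive with DMBQ. At an unadjusted p under 0.05 there were 1016 genes (5.12%) on the positive and 653 (3.29%) on the negative side, and edgeR called none (0%) of the negative ones. DESeq2 called 3 there, NUDT16, SSR16 and the mitochondrial ATMG01390, named here after their values were seen. The difference contains the DMBQ change, so a rise with DMBQ in these genes largely follows from their choice and is no separate support. All 32 genes rose in the DMBQ interval, by 0.29 to 2.28 on the log2 scale. In each of the 32 the 3 libraries at 1 h lay above the 3 at 0.5 h, as in 23.8% of all genes tested. Their median log2 fold change was 0.978 with DMBQ and -0.071 with DMSO. In DMSO 8 of them fell and none rose, and those 8 are the genes with opposite calls counted above. The length and GC correction called 29 genes (0.146%), 25 of them in common. The fits to fewer libraries called more: 132 genes on the positive and 13 on the negative side with WT libraries only, and 84 and 7 with the compared libraries only. The number came to 17 to 20 in the 7 fits that left out WT DMBQ 1 h replicate 2 or 3, WT DMBQ 0.5 h replicate 2, WT DMSO 1 h replicate 2, or WT DMSO 0.5 h replicate 1, 2 or 3. Of the 32 genes, 12 were called in all 12 leave-one-out fits and all 8 other alternatives.

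**Figure D2:**
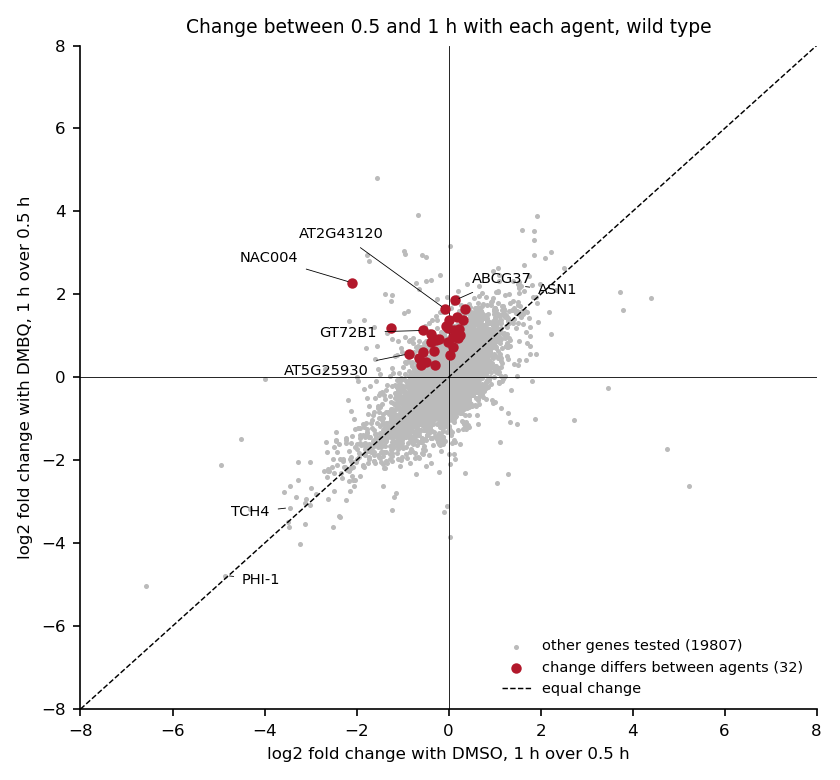
Log2 fold change of each of the 19839 tested genes in WT, 1 h over 0.5 h, with DMBQ (vertical axis) against the same with DMSO (horizontal axis); red points are the 32 genes whose change differed between agents, and the dashed line marks equal change. The falling genes PHI-1 and TCH4 lie near the line, and the red points lie above it, all but NAC004 and CLE44 within 1 of zero on the DMSO axis.

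Leaving aside 2 genes with low counts, the most positive difference among the 32 was that of AT2G43120 (chr2:17927181-17929138, TAIR10.1), a cupin protein whose annotated synonyms include PRN2, of the pirin family. It had 734, 781 and 796 CPM in the 3 libraries at 1 h with DMBQ and 259, 216 and 261 at 0.5 h, against 8.02, 7.75 and 11.1 CPM at 1 h and 9.72, 8.5 and 10.7 at 0.5 h with DMSO. The 2 DMBQ times did not overlap, and both DMSO times were far below either. Its log2 fold change was 1.65 ± 0.14 with DMBQ and -0.08 ± 0.20 with DMSO, and the difference was 1.73 ± 0.25 (SE; adjusted p = 2.72e-11, 0.857 and 0.000161, edgeR). Another cupin, without a symbol, AT1G50590 (chr1:18732378-18734199), also rose under quinone, with 113, 136 and 128 CPM at 1 h and 46.1, 44.9 and 59.4 CPM at 0.5 h (log2 fold change 1.32 ± 0.12, adjusted p = 3.77e-11). With DMSO it stayed at 0.338, 0.631 and 1.15 CPM at 1 h and 0.81, 1.06 and 1.02 CPM at 0.5 h, and its difference of changes, 1.75 ± 0.47, missed the threshold at these low counts (adjusted p = 0.161). PRN itself (AT3G59220), the pirin named for its interaction with a G-protein subunit, had 19.3, 10.9 and 12.7 CPM at 1 h and 17.4, 5.85 and 5.01 CPM at 0.5 h, with groups that overlapped (adjusted p = 0.175). Without WT DMBQ 0.5 h replicate 1, the high one of its group, PRN was called higher, with a log2 fold change of 1.41 and an adjusted p of 0.00181.

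ABCG37 (chr3:19825267-19831880), an ABC transporter that exports phenolic compounds from roots, had the smallest adjusted p of the 32. It measured 133, 159 and 177 CPM at 1 h and 42.8, 41.9 and 44.6 CPM at 0.5 h with DMBQ. Its level with DMSO was 30.4, 34.5 and 36.5 CPM at 1 h and 27.3, 34.3 and 29.8 CPM at 0.5 h. The 0.5 h libraries with DMBQ lay near the mean of 39.5 CPM at 0 h, and by 1 h the level had risen by 1.86 ± 0.14 on the log2 scale (difference of changes 1.72 ± 0.20, adjusted p = 6.58e-06). GT72B1 (chr4:461513-463556), a glucosyltransferase that conjugates chlorinated phenols and anilines, was already high at 0.5 h and rose further. Its libraries held 369.6, 399 and 445 CPM at 1 h and 181, 166 and 207 CPM at 0.5 h with DMBQ. The DMSO libraries held 16.8, 20.02 and 29.3 CPM at 1 h and 37, 28.6 and 32 CPM at 0.5 h. GT72B1 was among the 8 genes that moved in opposite directions, with log2 fold changes of 1.13 ± 0.15 with DMBQ and -0.55 ± 0.18 with DMSO (adjusted p = 6.13e-07 and 0.0368, and 0.000161 for the difference).

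GRXS13 (chr1:975871-977911), a glutaredoxin that binds TGA factors, had 94.5, 132 and 109 CPM at 1 h and 37.4, 37.6 and 31.9 CPM at 0.5 h with DMBQ. With DMSO, GRXS13 had 26.9, 27.1 and 20.9 CPM at 1 h and 20.6, 18.9 and 18.7 CPM at 0.5 h. Every library at 1 h with DMBQ lay above all 9 others, and the difference of changes was 1.29 ± 0.25 (adjusted p = 0.00928). PSK4, a precursor of the growth peptide phytosulfokine, had 76.3, 89 and 93.7 CPM at 1 h and 38.5, 40.2 and 46.4 CPM at 0.5 h with DMBQ. Its level with DMSO was 20.2, 21 and 17.4 CPM at 1 h and 27.8, 24.2 and 24.9 CPM at 0.5 h (difference 1.44 ± 0.24, adjusted p = 0.00212). GulLO2, a relative of the enzymes that finish ascorbate synthesis in animals, had 49, 60.3 and 65.1 CPM at 1 h and 19.4, 25.4 and 22.2 CPM at 0.5 h with DMBQ, while its DMSO libraries lay between 16.3 and 23.5 CPM at both times (difference 1.38 ± 0.24, adjusted p = 0.00261). GRXS13, PSK4 and GulLO2 kept their call in all 12 leave-one-out fits of the difference and under all 8 other alternatives. None of the 3 was called in the DMSO interval.

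**Figure D3:**
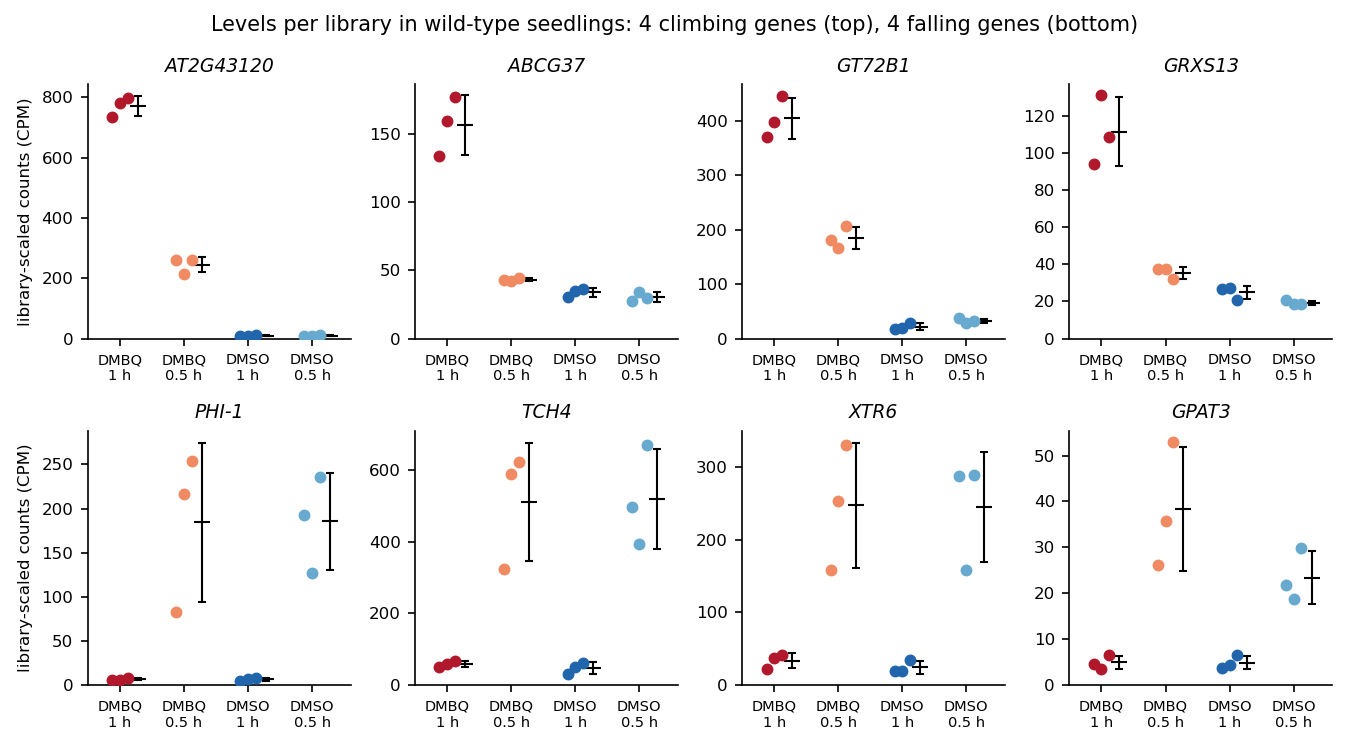
Library-scaled counts (CPM, vertical axes starting at 0) of 4 genes that rose (top) and 4 that fell (bottom) in WT, by agent and time; dots are libraries and the bar beside them is the mean with its SD (n = 3). The top genes are highest with DMBQ at 1 h, and the bottom genes are low at 1 h and high at 0.5 h with either agent.

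The 32 genes held membrane transporters and kinases by annotated product. Both groupings were made after the genes were known, members outside the naming rule are named for them, and their shares were not compared with those of all genes, so the 32 are not shown to be rich in either. Besides ABCG37, the transporters included ABCG34, a pleiotropic drug resistance transporter known for camalexin secretion, ABCA7, ABCB4, the aquaporin-like channel NIP1;2, the nitrate transporter NRT1.9 and the peptide transporter PTR2. ABCG34 had 162, 195 and 225 CPM at 1 h and 111, 102 and 109 CPM at 0.5 h with DMBQ. The DMSO libraries held 80.6, 83.6 and 83.9 CPM at 1 h and 97.2, 111 and 114 CPM at 0.5 h, so that the agents overlapped at 0.5 h and did not at 1 h. NIP1;2 had 40.1, 42 and 37.4 CPM at 1 h and 16, 17.8 and 18.4 CPM at 0.5 h with DMBQ, with a difference of changes of 1.199 ± 0.20 (adjusted p = 0.00153). ABCA7 was less firm: its difference of 1.31 ± 0.28 (adjusted p = 0.0244) lost its call with the length and GC correction, where it was 1.17 (adjusted p = 0.0692), and in 7 of the 12 leave-one-out fits.

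Among the kinases were the cysteine-rich receptor kinase CRK2, its neighbour AT1G70530, the leucine-rich repeat kinases AT5G25930, AT1G56145 and RPK1, and the calcium-sensor-dependent kinase CIPK12. AT1G70530 had 37.8, 48.5 and 47.4 CPM at 1 h and 22.3, 23.6 and 24.2 CPM at 0.5 h with DMBQ. With DMSO, AT1G70530 had 12.2, 17.58 and 15.4 CPM at 1 h and 19.3, 18 and 19.2 CPM at 0.5 h. AT5G25930 had 36.5, 42.5 and 51.4 CPM at 1 h and 25.8, 28.1 and 34.3 CPM at 0.5 h with DMBQ. Its level with DMSO was 8.61, 6.94 and 11.9 CPM at 1 h and 16.5, 16.6 and 17.7 CPM at 0.5 h. AT1G70530 and AT5G25930 were thus highest in the 3 libraries at 1 h with DMBQ. AT5G25930 rose with DMBQ and fell with DMSO, but its difference of 1.43 ± 0.31 (adjusted p = 0.0373) was called in 3 of 12 leave-one-out fits and not with the length and GC correction, where it was 1.29 (adjusted p = 0.0699). The 2 most positive differences, those of the transcription factor NAC004 (4.38) and the peptide gene CLE44 (2.45), came from low counts, with NAC004 at 3.49, 7.52 and 6.72 CPM at 1 h and 1.05, 1.06 and 1.51 CPM at 0.5 h with DMBQ and at most 0.62 CPM with DMSO. They were called in 4 and 2 of the 12 leave-one-out fits.

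The windows of 300 bases before the annotated gene start were read from the RefSeq copy of TAIR10.1 for 19713 of the tested genes and searched on both strands for 8 short motifs. The letters TGACG, the core of the as-1 element bound by TGA factors, were found in 37.5% of the windows of the 32 genes (12 of 32), in 28.1% of those of genes that rose at least 2-fold (98 of 349) and in 22% of all windows (4337 of 19713). A match to these letters is a description and not a site, and TTGACG would also count for the W-box core TTGAC. The windows of ABCG37, GT72B1, PSK4, GulLO2 and ABCA7, all among the 32, held no match, and the cupin AT1G50590 is not among the 32. Shown are windows that hold a match, those of the 2 cupins, of GRXS13, which binds TGA factors, and of the kinase AT5G25930, which holds 3. TGACG, or CGTCA where the match is on the other strand, is in capitals, and each is written 5′ to 3′ on the strand of its gene, ending at the base before the gene start.
AT2G43120 (chr2:17926881-17927180, plus strand): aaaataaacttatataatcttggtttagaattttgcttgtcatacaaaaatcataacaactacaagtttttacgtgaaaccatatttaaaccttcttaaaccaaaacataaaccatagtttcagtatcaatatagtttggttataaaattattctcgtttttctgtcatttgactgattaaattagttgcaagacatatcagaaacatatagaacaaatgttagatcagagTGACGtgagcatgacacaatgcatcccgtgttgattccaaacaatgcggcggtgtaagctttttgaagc
AT1G50590 (chr1:18734200-18734499, minus strand): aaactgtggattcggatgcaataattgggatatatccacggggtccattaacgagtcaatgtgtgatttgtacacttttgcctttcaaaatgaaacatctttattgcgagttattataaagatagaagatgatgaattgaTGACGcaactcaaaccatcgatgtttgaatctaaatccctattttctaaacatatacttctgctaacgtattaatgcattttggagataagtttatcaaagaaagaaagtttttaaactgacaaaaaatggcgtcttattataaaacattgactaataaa
GRXS13 (chr1:977912-978211, minus strand): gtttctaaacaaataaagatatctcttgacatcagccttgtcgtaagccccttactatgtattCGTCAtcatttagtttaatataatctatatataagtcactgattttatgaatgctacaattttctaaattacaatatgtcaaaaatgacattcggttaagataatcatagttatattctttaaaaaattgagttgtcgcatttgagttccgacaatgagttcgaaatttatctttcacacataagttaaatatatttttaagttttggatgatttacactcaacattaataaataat
AT5G25930 (chr5:9050360-9050659, plus strand): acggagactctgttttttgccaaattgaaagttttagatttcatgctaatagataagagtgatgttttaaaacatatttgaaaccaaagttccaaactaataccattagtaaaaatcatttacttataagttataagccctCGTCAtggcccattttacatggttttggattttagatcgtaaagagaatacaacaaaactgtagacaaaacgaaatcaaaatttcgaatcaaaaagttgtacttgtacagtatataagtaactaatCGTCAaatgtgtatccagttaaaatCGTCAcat

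Whether genes raised by DMBQ went on climbing was asked with genes chosen in card1 libraries, none of which enter the WT comparison. At 0.5 h, 27 genes (0.136% of those tested) were higher with DMBQ than with DMSO in card1. Of these, 22 (81.5%, against the 17.7% of all genes) were still rising in WT at 1 h and none fell. Their median log2 fold change was 0.833 with DMBQ and -0.00436 with DMSO. The cupin genes AT2G43120 and AT1G50590, GT72B1, GRXS13, PSK4 and the berberine-bridge-like oxidase AT1G30700 were among them. AT1G30700 had 115, 130.4 and 126 CPM at 1 h and 42.4, 49 and 43.8 CPM at 0.5 h with DMBQ, and stayed at 8.17 to 13.4 CPM with DMSO. Regulators in this set also rose, among them NAC102 with 156, 223 and 194 CPM at 1 h and 91.4, 98.1 and 109.8 CPM at 0.5 h, and WRKY75, a factor tied to senescence and phosphate supply, with 6.48, 9.56 and 7.67 CPM and 2.18, 2.13 and 1.89 CPM. The 5 members that were not called were AT1G05575, SIB2, MYB84, AT1G17147 and DREB2A, named after their values were seen. DREB2A, a dehydration and heat regulator, had 51, 59.6 and 57.3 CPM at 1 h and 38.6, 40.2 and 39.7 CPM at 0.5 h, which do not overlap, yet its log2 fold change of 0.50 ± 0.21 had an adjusted p of 0.0557, though it was called with WT libraries only (adjusted p = 0.011) and with the compared libraries only (adjusted p = 0.000285). SIB2 and AT1G05575 had lower means at 1 h than at 0.5 h, with log2 fold changes of -0.14 and -0.40.

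The sets chosen in card1 at 1 h and 6 h were larger. Of 194 genes (0.978%) higher with DMBQ in card1 at 1 h, 124 rose and 5 fell in the WT interval, with a median log2 fold change of 0.637. Of 165 (0.832%) chosen at 6 h, 81 rose and 17 fell, with a median of 0.364. Of the genes lowered by DMBQ in card1, 3 of 41 (0.207%) chosen at 1 h rose and 6 fell, and 4 of 44 (0.222%) chosen at 6 h rose and 8 fell, shares near or below those of all genes. With the length and GC correction applied throughout, the counts of rises were 21 of 27, 125 of 192 and 80 of 183, and 1 of the 27 fell. Rises among the lowered genes were then 5 of 43 at 1 h and 7 of 62 at 6 h, against 12.3% of all genes.

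Detoxification lists were written from textbook knowledge with earlier results of these data known. Their background, the shares of all genes tested, was 17.7% higher and 17.9% lower with DMBQ. With DMSO it was 6.72% higher and 6.77% lower. Of 19 tested xenobiotic glucosyltransferases, 8 rose and 1 fell with DMBQ, against none that rose and 3 that fell with DMSO, and the median log2 fold change was 0.0417 with DMBQ, against a median of -0.0204 over all genes. UGT73B3, which acts in pathogen and redox responses, had 57.9, 90.5 and 105 CPM at 1 h and 28.1, 28.9 and 37.5 CPM at 0.5 h with DMBQ (log2 fold change 1.42 ± 0.25, adjusted p = 4.64e-05). Its neighbour UGT73B1 had 138, 183 and 179 CPM at 1 h and 67.2, 77.2 and 74.7 CPM at 0.5 h (log2 fold change 1.19 ± 0.20). In both genes the 1 h libraries lay above the 0.5 h libraries, but the difference of changes did not pass for either (adjusted p = 0.427 and 0.299). UGT76B1, which glycosylates the defence signal isoleucic acid, rose by 0.89 ± 0.13 on the log2 scale (adjusted p = 2.30e-06).

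Of 12 tested detoxification P450s and transporters, 4 rose and none fell with DMBQ (4 and 1 with the length and GC correction), and none was called with DMSO. The shares of all genes were 17.7% and 17.9% with DMBQ (12.3% and 14.5% with the correction), and 6.72% and 6.77% with DMSO. ABCB4, an auxin transporter, had 62.3, 73.9 and 73.9 CPM at 1 h and 35.8, 34.9 and 37.6 CPM at 0.5 h, and was the member with a called difference (adjusted p = 0.021), which ended with the length and GC correction (adjusted p = 0.319). CYP81D11, a P450 induced by xenobiotics, took an unusual course: its WT means were 35.4, 9.1, 27.2 and 4.22 CPM at 0, 0.5, 1 and 6 h with DMBQ. With DMSO they were 44.1, 3.4, 1.62 and 0.535 CPM, so its rise of 1.56 ± 0.49 with DMBQ between 0.5 and 1 h (adjusted p = 0.0125) followed lower means at 0.5 h than at 0 h with either agent. Without WT DMBQ 0.5 h replicate 2 that rise was 1.39 with an adjusted p of 0.0535.

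Glutathione transferases were split. Of 24 tau-class members, 4 rose and 8 fell, and with the length and GC correction 4 rose and 4 fell. Over all genes 17.7% rose and 17.9% fell, or 12.3% and 14.5% with the correction, so the tau-class rises were near or little above background. GSTU25 had 10.8, 11.8 and 14.2 CPM at 1 h and 7.68, 3.62 and 5.68 CPM at 0.5 h with DMBQ, and 1.21 to 1.45 CPM with DMSO at both times. GSTU22 rose by 1.54 ± 0.26 on the log2 scale (adjusted p = 1.03e-05), while GSTU26 fell by 0.54 (adjusted p = 0.000523). Of 12 phi-class members none rose and 2 fell, GSTF10 and GSTF9, neither called after the correction or without WT DMBQ 1 h replicate 2 or 3 or WT DMBQ 0.5 h replicate 1 or 3. Among 10 quinone, enone and carbonyl reductases, FQR1, a flavodoxin-like quinone reductase, rose with 337, 359.5 and 366 CPM at 1 h and 240.2, 232 and 208 CPM at 0.5 h (log2 fold change 0.64 ± 0.13, adjusted p = 0.000237). The alkenal reductase AER fell by 0.84 (adjusted p = 0.00344) and fell with DMSO too, by 0.76.

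The TGA, SCL14 and stress NAC factors held 9 rises and 2 falls among 19 tested members with DMBQ, and 5 rises and 2 falls with DMSO. Rises and falls made up 17.7% and 17.9% of all genes with DMBQ, and 6.72% and 6.77% with DMSO. NAC053, a NAC factor of the proteasome and oxidative stress response, had 33.7, 43.1 and 45.9 CPM at 1 h and 21.8, 21.2 and 26.8 CPM at 0.5 h with DMBQ. The DMSO libraries held 12.8, 14.3 and 16 CPM at 1 h and 12.7, 13.8 and 16 CPM at 0.5 h. NAC6, the senescence regulator also called ORE1, instead rose with both agents, with 59.4, 81.6 and 70.3 CPM at 1 h and 21.6, 25.8 and 11.9 CPM at 0.5 h with DMBQ. With DMSO, NAC6 had 61, 63.6 and 65.2 CPM at 1 h and 21.6, 27.7 and 21.8 CPM at 0.5 h. For NAC053 the times parted with DMBQ and overlapped with DMSO, and for NAC6 they parted with both. In the salicylic acid list, 4 of 15 rose and 3 fell, against 17.7% and 17.9% of all genes. Its leading riser beside GRXS13 was DMR6, which hydroxylates salicylic acid, with 108, 133 and 147 CPM at 1 h and 42.6, 42.3 and 48.4 CPM at 0.5 h with DMBQ (log2 fold change 1.54 ± 0.21, adjusted p = 7.39e-07; difference of changes 1.09 ± 0.32, adjusted p = 0.291).

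**Figure D4:**
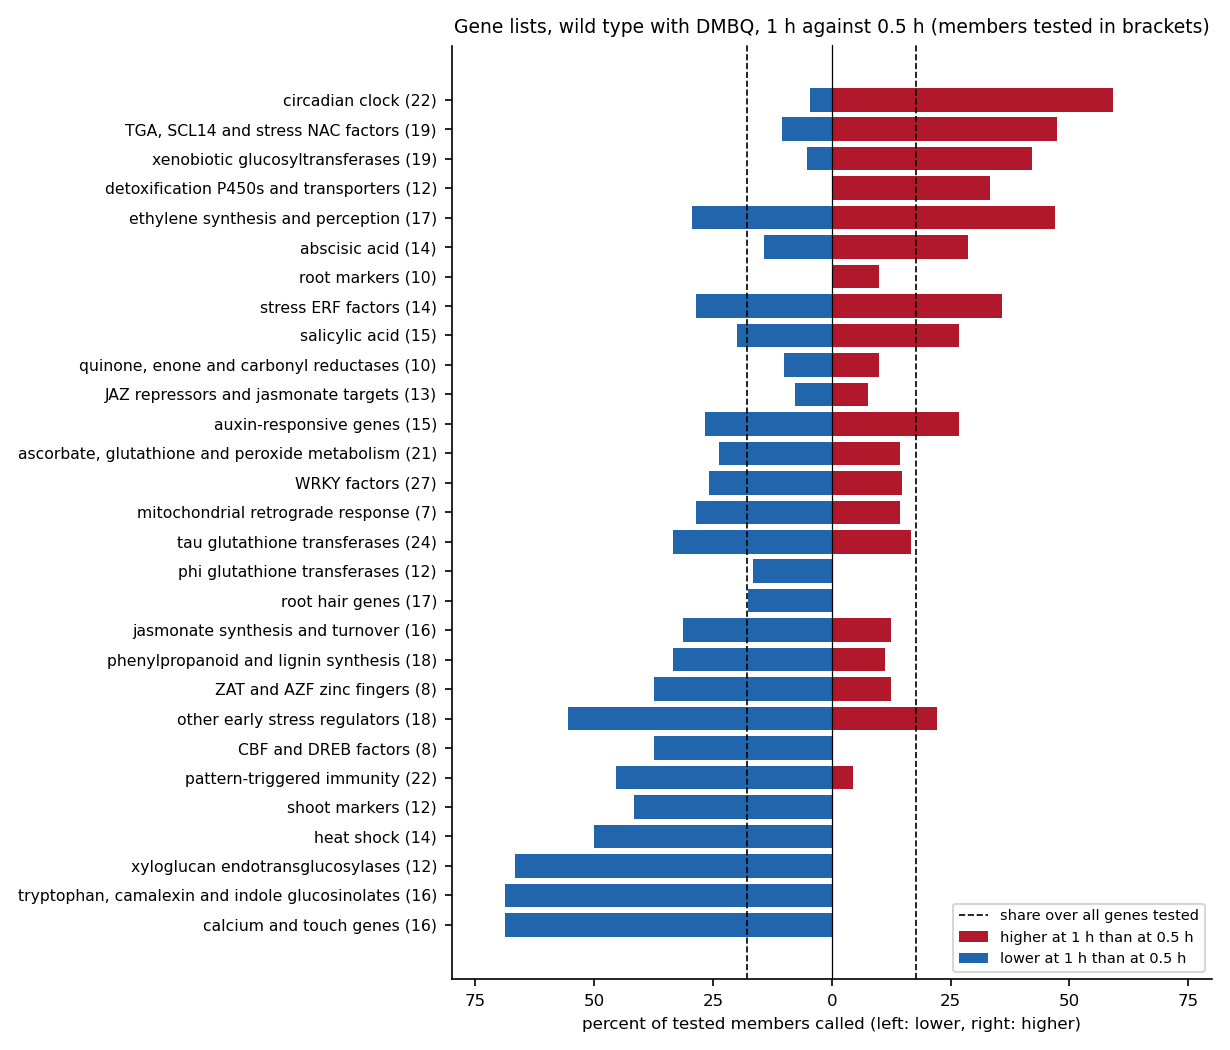
Percent of the tested members of each gene list with at least 7 of them that were called higher (right, red) or lower (left, blue) in WT with DMBQ at 1 h than at 0.5 h, with the number tested in brackets; dashed lines mark the shares over all tested genes, 17.7% and 17.9%. Clock, TGA and NAC, and glucosyltransferase lists stand to the right, and touch, tryptophan-derived defence and xyloglucan lists to the left.

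Most of the largest rises of the interval also came with the solvent: of the 12 most risen genes that met the naming rule, 8 also rose with DMSO, and the difference of changes was not called for any of the 12. They included genes of amino acid salvage and low sugar. ASN1, the asparagine synthetase induced by darkness and sugar shortage, had 286, 508 and 584 CPM at 1 h and 79.9, 149 and 71.8 CPM at 0.5 h with DMBQ. Its level with DMSO was 414, 269.5 and 287 CPM at 1 h and 98.1, 104 and 122 CPM at 0.5 h. Its log2 fold change was 2.198 ± 0.39 with DMBQ and 1.58 ± 0.39 with DMSO (adjusted p = 4.83e-05 and 0.00456). BCAT-2, a branched-chain amino acid transaminase, rose by 2.25 ± 0.34 with DMBQ and 1.499 ± 0.34 with DMSO. All 3 sugar starvation genes rose with both agents, DIN10 reaching 3334, 4203 and 3802 CPM at 1 h against 1898, 2250 and 1483 CPM at 0.5 h with DMBQ.

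NAP, a NAC factor that promotes leaf senescence, had 8.08, 11.8 and 13.1 CPM at 1 h and 1.14, 1.38 and 1.7 CPM at 0.5 h with DMBQ. The DMSO libraries held 6.75, 3.7 and 5.04 CPM at 1 h and 1.75, 1.33 and 1.19 CPM at 0.5 h. The dehydration-related CAP160 gene AT4G25580 rose by 3.03 ± 0.58 on the log2 scale with DMBQ and 2.21 ± 0.58 with DMSO, and the thioredoxin-family gene AT3G62950 by 2.88 ± 0.50 and 2.09 ± 0.52. The 4 risers not called with DMSO were AT5G49690, a glycosyltransferase, AT5G14470, a GHMP-family kinase, AT3G18950 and the cupin PAP85. AT5G14470 had 26.1, 54.2 and 50.6 CPM at 1 h and 6.2, 8.94 and 8.7 CPM at 0.5 h with DMBQ. With DMSO, AT5G14470 had 6.16, 4.15 and 5.96 CPM at 1 h and 3.51, 1.42 and 3.23 CPM at 0.5 h, yet its difference of changes, 1.36 ± 0.70, had an adjusted p of 0.609. For ASN1, AT4G25580, AT3G62950 and AT5G14470, replicate 1 at 1 h with DMBQ was the lowest of its group.

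Of 22 tested clock genes, 13 rose and 1 fell with DMBQ, while 7 rose and 1 fell with DMSO, and the median difference of changes was 0.0426. Background for this list and the ethylene list was 17.7% of all genes higher and 17.9% lower with DMBQ. It was 12.3% and 14.5% with DMBQ after the length and GC correction, and 6.72% and 6.77% with DMSO. ELF3, of the evening complex, had 109, 101 and 104 CPM at 1 h and 79, 68.3 and 60.4 CPM at 0.5 h with DMBQ. Its level with DMSO was 103, 113 and 95.7 CPM at 1 h and 67.3, 77.5 and 69.4 CPM at 0.5 h. The falling member was TCP11, with 23.4, 25.4 and 25.3 CPM at 1 h and 52.9, 66.1 and 64 CPM at 0.5 h with DMBQ (log2 fold change -1.30 ± 0.12), and it also fell with DMSO (-1.07 ± 0.12). With the length and GC correction, 9 clock genes rose and 1 fell. In the ethylene list, 8 of 17 rose and 5 fell, or 5 and 4 with the correction. EBF2, which targets EIN3 for degradation, had 365, 386 and 362 CPM at 1 h and 136, 164 and 139 CPM at 0.5 h with DMBQ, with log2 fold changes of 1.34 ± 0.13 with DMBQ and 0.84 ± 0.12 with DMSO. The receptors ERS1 and ERS2 rose as well, by 0.77 ± 0.08 and 1.06 ± 0.15 with DMBQ.

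The deepest falls came with quinone and solvent alike. PHI-1 (chr1:12851983-12853235), a phosphate-responsive gene of the EXORDIUM family, had 5.6, 6.19 and 8.38 CPM at 1 h and 82.3, 216 and 254 CPM at 0.5 h with DMBQ. The DMSO libraries held 4.56, 6.85 and 7.64 CPM at 1 h and 193, 127 and 236 CPM at 0.5 h. The times did not overlap with either agent, and the log2 fold changes were -4.78 ± 0.58 with DMBQ and -4.85 ± 0.60 with DMSO, with a difference of 0.07 ± 0.84 (adjusted p = 1.98e-07, 5.69e-07 and 0.995). Over the 30 minutes between samples, that fall equals a net halving every 6.28 minutes, and the 12 largest falls named by the rule ran between 6.28 and 10.4 minutes per halving. All 12 also fell with DMSO, and 10 of them fell in card1 with DMBQ. Among the others, the GATA factor BME3, which promotes germination, had 21.7, 17.5 and 17.2 CPM at 1 h and 115, 132 and 185 CPM at 0.5 h with DMBQ. AT4G12520, of the lipid-transfer protein family, had 1.46, 0.984 and 0.949 CPM at 1 h and 13.4, 6.92 and 10.7 CPM at 0.5 h with DMBQ, but it and the named AT4G12510 are near-identical neighbours, so the split of reads between them is uncertain.

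TCH4 (chr5:23307006-23308680), the touch-induced xyloglucan endotransglucosylase, had 49.9, 57.9 and 66.2 CPM at 1 h and 323, 590.2 and 625 CPM at 0.5 h with DMBQ. With DMSO, TCH4 had 29.6, 51 and 61.7 CPM at 1 h and 498, 394 and 671 CPM at 0.5 h (log2 fold changes -3.14 ± 0.41 and -3.45 ± 0.42). XTR6, of the same enzyme family, had 22.3, 37.8 and 41.2 CPM at 1 h and 158, 253 and 331 CPM at 0.5 h with DMBQ. DIC2, a mitochondrial dicarboxylate carrier, had 3.93, 4.01 and 6.01 CPM at 1 h and 21.2, 40.7 and 94.1 CPM at 0.5 h with DMBQ, and fell by 3.48 on the log2 scale with DMSO. GPAT3, a glycerol-3-phosphate acyltransferase, had 4.66, 3.58 and 6.48 CPM at 1 h and 26.2, 35.8 and 52.9 CPM at 0.5 h with DMBQ. Its level with DMSO was 3.8, 4.42 and 6.49 CPM at 1 h and 21.7, 18.8 and 29.8 CPM at 0.5 h. In PHI-1, TCH4, XTR6, DIC2 and GPAT3, replicate 1 at 0.5 h with DMBQ was the lowest of its group, and still above all 3 libraries at 1 h.

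Falls outnumbered rises in 5 lists of touch, cell wall, defence and stress genes. Among all genes tested, 17.7% rose and 17.9% fell with DMBQ, or 12.3% and 14.5% with the length and GC correction. With DMSO, 6.72% rose and 6.77% fell, so a list count with DMSO stands against a lower background. Of 16 calcium and touch genes, none rose and 11 fell with DMBQ (median log2 fold change -1), and none rose and 7 fell with DMSO (median -1.06). TCH2, a calmodulin-like protein, had 20.9, 18.8 and 22.9 CPM at 1 h and 101, 101 and 126 CPM at 0.5 h with DMBQ. Of 12 xyloglucan endotransglucosylases, none rose and 8 fell with DMBQ, against 6 that fell with DMSO, with medians of -0.904 and -0.907. Among 22 pattern-triggered immunity genes, 1 rose and 10 fell with DMBQ (2 and 10 with the length and GC correction), and 9 fell with DMSO. The syntaxin SYP122 fell by 1.51 with DMBQ and 1.46 with DMSO, and NHL3 by 1.52 and 1.63. Other early stress regulators counted 4 rises and 10 falls among 18, where MYB77 had 7.57, 7.52 and 6.17 CPM at 1 h and 25.3, 41.6 and 38.6 CPM at 0.5 h with DMBQ, and the zinc finger gene SZF1 had 29.8, 25.6 and 27.6 CPM and 84.4, 135 and 175 CPM. Of 14 heat shock genes, none rose and 7 fell with DMBQ, against 4 that fell with DMSO. No difference of changes was called for any member of these 5 lists.

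The 2 lists of tryptophan-derived defence and of jasmonate synthesis held more falls with DMBQ than with DMSO, an interval in which fewer genes were called, and no member of either had a called difference. All genes tested held 17.7% rises and 17.9% falls with DMBQ, or 12.3% and 14.5% with the length and GC correction. The DMSO shares were 6.72% and 6.77%, so more falls with DMBQ are in part what these backgrounds give. In the tryptophan, camalexin and indole glucosinolate list, 11 of 16 fell and none rose with DMBQ (median -0.614), while 3 fell and 1 rose with DMSO (median -0.304), and the median difference of changes was -0.266. CYP79B2, which makes the precursor of indole glucosinolates and camalexin, had 21.9, 17.4 and 17.9 CPM at 1 h and 51.8, 28.3 and 46.3 CPM at 0.5 h with DMBQ. The DMSO libraries held 16.5, 17.5 and 19.2 CPM at 1 h and 25.4, 23.5 and 21.3 CPM at 0.5 h (difference -0.75 ± 0.31, adjusted p = 0.525). MYB34, a regulator of the pathway, had 7.5, 4.78 and 5.69 CPM at 1 h and 17, 13.6 and 15.9 CPM at 0.5 h with DMBQ, and fell by 0.74 with DMSO. In the jasmonate synthesis list, 2 of 16 rose and 5 fell with DMBQ, while 1 rose and none fell with DMSO, and with the length and GC correction none rose and 5 fell with DMBQ. The allene oxide cyclase AOC3 fell by 1.09 (adjusted p = 0.000339). In the separate list of JAZ repressors and jasmonate targets, 1 of 13 rose and 1 fell with DMBQ. From that list, JAZ1 had 30.3, 19.1 and 25.9 CPM at 1 h and 61.9, 51.7 and 100.1 CPM at 0.5 h with DMBQ (adjusted p = 0.00209). PROPEP1, a danger peptide precursor, had 0.946, 1.2 and 0.869 CPM at 1 h and 3.4, 2.98 and 3.88 CPM at 0.5 h with DMBQ. With DMSO, PROPEP1 had 0.929, 0.631 and 1.15 CPM at 1 h and 1.21, 1.24 and 1.53 CPM at 0.5 h (difference -1.24 ± 0.46, adjusted p = 0.48).

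Genes higher with DMSO at 0.5 h than at 0 h were chosen from the 19839 tested, in libraries outside the WT DMBQ interval. Solvent, time since handling and time of day moved together in this choice and cannot be told apart. Of 1040 genes higher in WT with DMSO at 0.5 h than at 0 h, 540 fell (51.9%, against 17.9% of all genes) and 60 rose (5.77%, against 17.7%) between 0.5 and 1 h with DMBQ, with a median log2 fold change of -0.318. The same choice in card1 depended on 2 libraries: with all of them, 2250 genes (11.3%) were chosen and 793 rose and 619 fell in WT, and without card1 DMSO 0 h replicates 1 and 2, whose transcript-length trend was also steep, 595 were chosen, of which 22 rose and 359 fell. With the length and GC correction and all libraries, 1328 genes were chosen, of which 123 rose and 621 fell.

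The letters ACGCGT, 1 form of the CGCG box bound by the calmodulin-binding CAMTA factors, lay in 7.72% of the windows of genes that fell at least 2-fold (43 of 557), 0.86% of those that rose at least 2-fold (3 of 349) and 2.03% of all windows (401 of 19713). Other forms of the box were not searched. ACGCGT reads the same on both strands. Of the 12 named falls, only GPAT3 and DIC2 held a match. The windows of the others, among them PHI-1, TCH4, XTR6 and BME3, did not hold these letters, which does not show that they lack other forms of the box. The window of GPAT3 is shown because it holds a match and overlaps no other gene, and its 1 match is in capitals.
GPAT3 (chr4:846815-847114, minus strand): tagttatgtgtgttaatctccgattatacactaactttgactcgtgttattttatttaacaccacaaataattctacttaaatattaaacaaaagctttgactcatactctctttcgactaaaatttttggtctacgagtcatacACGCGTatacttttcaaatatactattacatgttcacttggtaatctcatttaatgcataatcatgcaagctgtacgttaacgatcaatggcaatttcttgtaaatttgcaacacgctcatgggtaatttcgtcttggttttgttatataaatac

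Placed in the full WT time course, the genes with a called difference and the named falls differed in shape. With DMBQ, AT2G43120 averaged 7.58 ± 2.21 CPM at 0 h and 245 ± 25.8 CPM at 0.5 h (SD, n = 3). It reached 770.5 ± 32.2 CPM after 1 h and held 560 ± 28.1 CPM after 6 h. Of the 32 genes with a called difference, 24 had a higher mean at 0.5 h than at 0 h with DMBQ, and 26 a lower mean at 6 h than at 1 h. NIP1;2 was one that went on, with 39.8 CPM at 1 h and 53 CPM at 6 h. Of the 12 most risen genes, only 3 had a higher mean at 0.5 h than at 0 h with DMBQ, and 5 with DMSO. In the rest of the 12 the 0.5 h mean with DMBQ was not above that at 0 h. All 12 named falls had a higher mean at 0.5 h than at 0 h with DMBQ and a lower mean at 1 h than at 0 h. PHI-1 averaged 49.1 ± 25.4 CPM at 0 h and 184 ± 90.2 CPM at 0.5 h, then 6.72 ± 1.46 CPM after 1 h and 1.97 ± 0.412 CPM after 6 h. These counts describe means, were not tested and have no share over all genes beside them. The genes were chosen for their change between 0.5 and 1 h, which favours low 0.5 h levels among rises and high ones among falls.

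**Figure D5:**
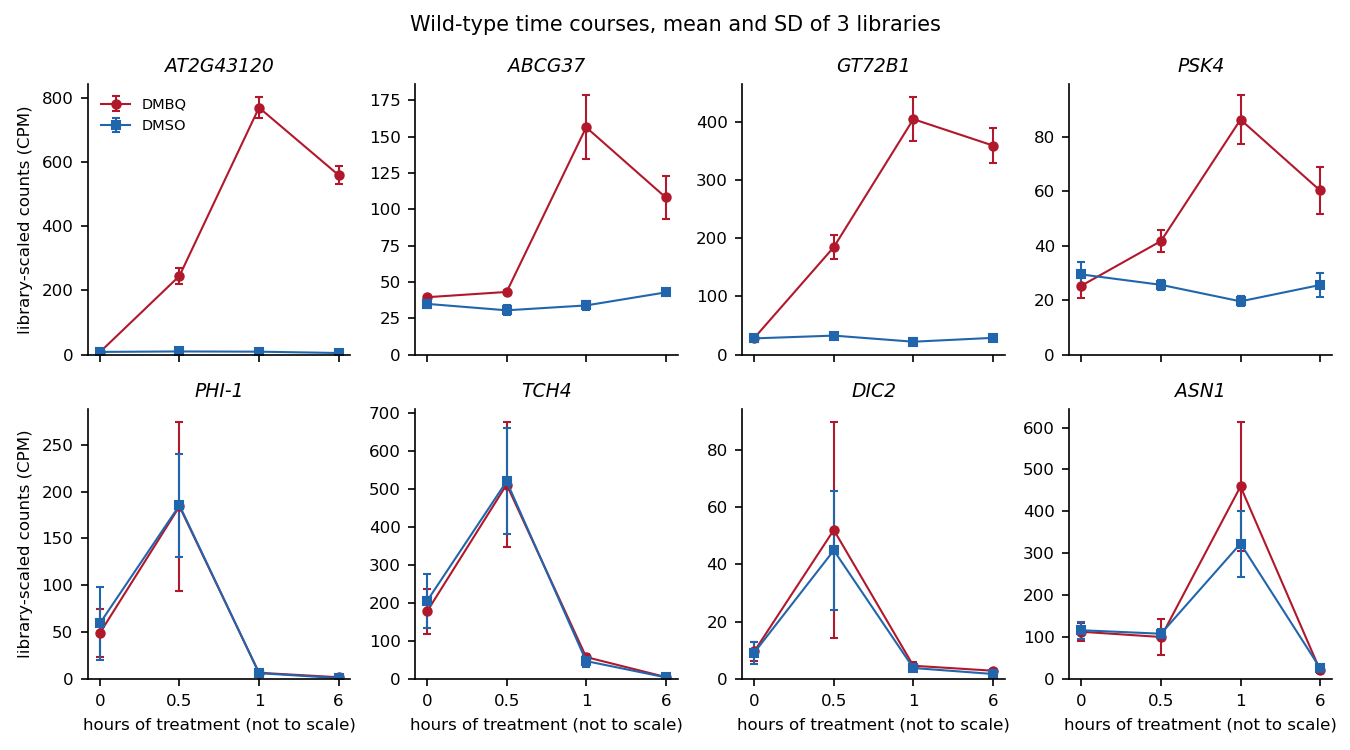
Library-scaled counts (CPM, vertical axes starting at 0) of 8 genes in WT at 0, 0.5, 1 and 6 h with DMBQ (red circles) and DMSO (blue squares), mean with SD of 3 libraries; the time axis is not to scale. The 4 upper genes part from DMSO and are highest at 1 h, PHI-1, TCH4 and DIC2 peak at 0.5 h with both agents, and ASN1 peaks at 1 h with both.

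For the remaining lists too, the background was 17.7% of all genes higher and 17.9% lower. WRKY factors counted 4 rises and 7 falls among 27, with WRKY18, a defence regulator, at 16, 16.9 and 21.2 CPM at 1 h and 82.7, 92.5 and 115 CPM at 0.5 h with DMBQ. Stress ERF factors counted 5 rises and 4 falls among 14 (6 and 2 with the length and GC correction), CBF and DREB factors no rise and 3 falls among 8, and ZAT and AZF zinc fingers 1 rise and 3 falls among 8 (2 and 1 with the correction). Auxin-responsive genes counted 4 rises and 4 falls among 15, abscisic acid genes 4 and 2 among 14 (4 and 1 with the correction), JAZ repressors and targets 1 and 1 among 13, and the mitochondrial retrograde list 1 and 2 among 7. Ascorbate, glutathione and peroxide genes counted 3 rises and 5 falls among 21, where APX1, a cytosolic ascorbate peroxidase, had 614, 478 and 534 CPM at 1 h and 987, 779 and 897 CPM at 0.5 h with DMBQ. Phenylpropanoid and lignin genes counted 2 rises and 6 falls among 18 (1 and 6 with the correction). CARD1 itself was not called, with 69.1, 75.4 and 79.8 CPM at 1 h and 75.1, 86.3 and 84 CPM at 0.5 h with DMBQ (log2 fold change -0.13 ± 0.08, adjusted p = 0.234), although with the length and GC correction its fall of 0.36 was (adjusted p = 0.000811).

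Of 12 shoot markers none rose and 5 fell with DMBQ, or 3 with the length and GC correction, and their summed level was 32520 to 39810 CPM at 1 h and 40330 to 45650 CPM at 0.5 h with DMBQ, and 33500 to 41220 CPM at 1 h and 38020 to 40140 CPM at 0.5 h with DMSO. Of 10 root markers 1 rose and none fell (1 and 1 with the correction), with sums of 277.3 to 352.7 CPM at 1 h and 229.5 to 284.9 CPM at 0.5 h with DMBQ, and 285.3 to 334.2 CPM at 1 h and 282 to 349 CPM at 0.5 h with DMSO. Of 17 root hair genes none rose and 3 fell, with sums of 106.1 to 125.1 CPM at 1 h and 101.5 to 165.7 CPM at 0.5 h with DMBQ. With DMSO the root hair sums were 175.3 to 234.1 CPM at 1 h and 217.4 to 311.3 CPM at 0.5 h, above those with DMBQ at both times, a difference that was not tested. No marker was at 0 counts in these libraries. The shares of all genes with DMBQ were 17.7% higher and 17.9% lower, or 12.3% and 14.5% with the correction. The root hair falls were thus near background. The part of organ balance in the changes above was not tested, and in whole seedlings fewer cells of a type and less RNA per cell cannot be told apart.

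The same interval in card1 with DMBQ, which shares no library with WT, had 1361 rises (6.86%) and 1478 falls (7.45%), of which 879 rises and 965 falls were shared with WT. Without card1 DMBQ 0.5 h replicate 3 the card1 rises numbered 897, and without card1 DMBQ 1 h replicate 1 they numbered 903. The shared genes are 25% of WT rises and 64.6% of card1 rises, and 27.2% of WT falls and 65.3% of card1 falls. AT2G43120 rose by 1.65 ± 0.14 in WT and 2.05 ± 0.14 in card1, and GT72B1 by 1.13 ± 0.15 and 1.28 ± 0.16, with no called difference between genotypes (adjusted p = 0.208 and 0.733). The test of WT change minus card1 change called 1422 genes (7.17%), 734 higher (3.7%) and 688 lower (3.47%), with median transcript lengths of 3826 and 1043 bases against 1754 for all tested genes. With the length and GC correction it called 10 higher and 29 lower, and 36 of the 1422 genes remained, so most of these calls depended on how transcript length and GC content were treated. Single libraries weighed on it as well: without card1 DMBQ 0.5 h replicate 3 it called 267 higher and 120 lower, and without card1 DMBQ 1 h replicate 1 it called 289 and 159. It called 451 and 365 without WT DMBQ 1 h replicate 2, 378 and 257 without WT DMBQ 1 h replicate 3, 336 and 263 without WT DMBQ 0.5 h replicate 3, 429 and 331 without card1 DMBQ 1 h replicate 2, and 367 lower without WT DMBQ 0.5 h replicate 1. WRKY33, a central regulator of camalexin and immunity, was among those called in every fit: it averaged 51.5 ± 4.91 CPM at 1 h and 70.2 ± 11.8 CPM at 0.5 h in WT, and 29.9 ± 7.83 CPM and 139 ± 65.3 CPM in card1 (SD, n = 3 each). Its log2 fold change was -0.45 ± 0.26 in WT, where it was not called (adjusted p = 0.196), and -2.23 ± 0.28 in card1 (adjusted p = 5.10e-07). The difference of 1.78 ± 0.38 had an adjusted p of 0.00847, or 0.0416 after the correction.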

How the data were processed

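The authors deposited a table of raw read counts per gene for 48 libraries of mRNA from whole seedlings. Per the submitters' processing notes the tools and build named are HISAT2 2.1.0, HTSeq 0.6.1 and TAIR10. For the strand setting, the counting mode and the annotation version, nothing is given in the sources used here. Values of genes that overlap, lie antisense or have a near-identical copy are uncertain for that reason. Entries naming no gene held 13.6% to 20.7% of each library and were left out. Genes passing filterByExpr (minimum count 10; 19839 of 33602, 107 of them organellar) were scaled by TMM and fitted in 1 robust quasi-likelihood model over 48 libraries and 16 groups (edgeR 4.0.16, R 4.3.3), with adjustment by Benjamini-Hochberg at 0.05 over all 19839. The model left 32 residual degrees of freedom and the median SE of the DMBQ log2 fold change was 0.133. CPM are counts scaled by TMM to a common library total. Levels are not per length and are not compared between genes. Names, coordinates and sequences come from RefSeq's TAIR10.1 (32835 of 33602 identifiers, 97.7%), transcript lengths for 99.4% of tested genes.

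Named genes were the 12 largest called rises and falls whose mean log2 CPM reached 1 and whose groups did not overlap, the 8 most positive called differences between agents, the 5 most positive and the 5 most negative between genotypes, the 4 members of each list with the smallest adjusted p, and CARD1 and the pirins. Genes named outside this rule (members of the 32, or of the 27 chosen in card1) were chosen after their values were seen. The gene lists and the comparison were chosen with earlier results of these data known. Alternatives were RLE factors, no count filter, a replicate block, a length and GC correction by library (splines with 5 degrees of freedom), WT libraries only, compared libraries only, DESeq2 1.42.0, and leaving out each library. Of the list members, 458 of 503 were tested and 45 fell below the filter. The fit was tested on simulated data.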

Additional observations from a re-analysis of the deposited data

Results flagged for a closer look

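In WT the changes between 0.5 and 1 h differed between agents for 32 genes, by the test of DMBQ change minus DMSO change (edgeR, Benjamini-Hochberg adjusted). The 8 most positive among genes whose mean log2 CPM reached 1 had differences of 1.73 for AT2G43120, 1.72 for ABCG37, 1.68 for GT72B1, 1.44 for PSK4, 1.43 for AT5G25930, 1.38 for GulLO2, 1.31 for ABCA7 and 1.29 for GRXS13, all on the log2 scale. With the length and GC correction, AT5G25930 and ABCA7 were no longer called, at differences of 1.29 and 1.17.

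The change with DMBQ also differed between WT and card1, with 734 genes more positive and 688 more negative in WT. The most positive were AT5G51190 at 1.92, CYP718 at 1.80, BGLU34 at 1.80, WRKY33 at 1.78 and AT4G24430 at 1.61. The most negative were AT4G12520 at -2.07, PEP7 at -2.00, AT3G41761 at -1.94, ATMG01390 at -1.72 and ATCG00150 at -1.65. With the length and GC correction WRKY33 and ATMG01390 kept their calls (adjusted p = 0.0416 and 0.0364) and the other 8 did not. Their corrected differences were 2.13 for AT5G51190, 1.77 for CYP718, 1.83 for BGLU34, 1.54 for AT4G24430, -1.85 for AT4G12520, -1.72 for PEP7, -1.73 for AT3G41761 and -1.65 for ATCG00150, so the lost calls do not show that the differences were gone. AT4G12520 has a near-identical neighbour, so its counts are uncertain.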

How the results depend on the processing

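The rises (3513) and falls (3553) with DMBQ stayed within 1.5 times under all alternatives run, at 2746 to 3292 rises and 2460 to 3200 falls when 1 library was left out. The count of genes whose change was more positive with DMBQ than with DMSO (32) moved to 132 in a fit to WT libraries only and 84 in a fit to the compared libraries only, and to 17 to 36 on leaving out 1 library. More negative changes (0) came to 13 with WT libraries only, 7 with the compared libraries only and 3 with DESeq2, and to 0 to 1 on leaving out 1 library. Leaving out 1 library gave 773 to 1108 rises and 846 to 1193 falls with DMSO, 897 to 1154 rises and 988 to 1418 falls in card1, and 18 to 22, 109 to 121 and 69 to 76 risers in the sets chosen in card1 at 0.5, 1 and 6 h. Rises in card1 were 663 with the compared libraries only. The genotype difference (734 more positive, 688 more negative) was 10 and 29 with the length and GC correction and 447 more negative without the count filter, and 267 to 993 and 120 to 869 on leaving out 1 library. The causes were not tested. With the replicate block there were 3727 rises and 3860 falls with DMBQ and 57 genes more positive with DMBQ than with DMSO, or 50 with the replicate block and the length and GC correction, where the genotype difference was 90 and 246. DREB2A was called with the replicate block (adjusted p = 0.0427) and with both (0.0449). The labels do not say whether equal replicate numbers mark paired samples, and the main fit did not pair them. Deviations of same-numbered libraries in WT correlated at 0.19, 0.087 and 0.12 with DMBQ and at 0.087, 0.17 and 0.2 with DMSO. In card1 with DMBQ they correlated at 0.23, 0.19 and 0.36. In each of these comparisons 6 of 6 libraries correlated best with their own number, a hint of pairing from the data only. Across 295 results for single genes, lists, gene sets and motifs, 3199 values stayed the same and 158 moved. Another 129 lost and 22 gained a call, and 0 reversed. For genes, the same means the same side of the threshold, with no change of direction where called. For lists and sets it means a count within 1.5 times. For motifs it means a gene-strand share within the binomial interval of the both-strand share. Genes higher with DMSO at 0.5 h than at 0 h were also chosen without 2 card1 libraries, in WT and with the correction. These choices were added after seeing the data. Depth limits genes below about 1 CPM, such as AT1G50590 with DMSO, most.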

Other observations

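Organelle transcripts, which belong to no list above, moved in part between 1 h and 0.5 h with DMBQ in WT. Of 90 plastid-encoded genes tested, 31 were called higher and 10 lower, against 17.7% and 17.9% of all tested genes, with a median log2 fold change of 0.341 against -0.0204 over all tested genes. Of 17 mitochondrial genes tested, none was called higher and 4 were called lower, with a median of -0.196. Few organelle transcripts carry stable poly(A) tails, and the part of RNA selection in these values was not tested.

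The W-box core TTGAC lay in 70.4% of the windows of the 27 genes raised by DMBQ in card1 at 0.5 h (19 of 27), in 59.4% of those of the 32 genes whose change differed between agents (19 of 32) and in 50.3% of all windows (9906 of 19713), both strands searched. The W-box share was 48.7% for genes that rose at least 2-fold (170 of 349) and 56.7% for genes that fell at least 2-fold (316 of 557). These shares describe letters and not binding.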
